A study of Mus musculus with 6 samples.

Results

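Platelet-derived growth factors and their receptors were compared between CD73+ and CD73- AD-MSCs, mesenchymal stem cells grown from the groin adipose tissue of C57BL/6 mice. The members were the 6 genes of the family, the ligands Pdgfa, Pdgfb, Pdgfc and Pdgfd and the receptors Pdgfra and Pdgfrb, read by every probe set that the array's annotation assigns to only 1 of them. These were 14 of 45037 probe sets and 6 of 18193 genes. A probe set is a group of short probes that together read a transcript. Flow cytometry had separated the cells by CD73, a surface enzyme that makes adenosine and is encoded by Nt5e. The AD-MSCs were cultured in low-sugar medium with serum. Both sorted subgroups were cultured further and taken for RNA at the fifth passage, with no separate medium stated for them. Each was measured on 3 Affymetrix arrays, and the deposited values are log2 signals from RMA. Whether the replicates were separate cultures or animals is not stated, and the p-values therefore reflect array-to-array spread that could be technical. Nt5e itself had log2 signals of 7.84, 7.60 and 7.74 in CD73+ against 7.29, 6.39 and 6.84 in CD73- arrays, so the subgroups did not overlap at the fifth passage but the CD73- arrays spread widely.

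PDGF ligands are secreted dimers. PDGF-A and PDGF-B are cut inside the cell before they are secreted, whereas PDGF-C and PDGF-D leave the cell with an inhibitory CUB domain that proteases remove outside it. The receptor PDGFRα, encoded by Pdgfra, binds the A, B and C chains, and PDGFRβ, encoded by Pdgfrb, binds the B and D chains. Both are tyrosine kinases that signal through PI3-kinase, phospholipase C, Src kinases and Ras. In adipose tissue PDGFRα is known as a marker of stromal progenitors and PDGFRβ as a marker of mural cells around capillaries and of preadipocytes, and endothelial PDGF-B is known to recruit mural cells to new vessels.

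The promoter sequences of Pdgfd and Pdgfra are shown because these were the ligand and the receptor with the largest differences. Each holds 300 bases that run from upstream of an annotated transcription start to just past it (RefSeq, GRCm38.p6, plus strand). The Pdgfd sequence lies at chr9:6168236-6168535 and that of Pdgfra at chr5:75152001-75152300. Neither start is the most upstream base of its annotated gene. The Pdgfd gene begins at chr9:6168363, within the sequence shown but before the start used. The Pdgfra gene begins at chr5:75151322, so that the whole sequence shown lies inside it. Which start the cells use was not tested. Capitals mark a TATA box (TATAAA) or the half-site of the cAMP response element (TGACG, which reads CGTCA where it lies on the minus strand), and the search covered both strands.
Pdgfd: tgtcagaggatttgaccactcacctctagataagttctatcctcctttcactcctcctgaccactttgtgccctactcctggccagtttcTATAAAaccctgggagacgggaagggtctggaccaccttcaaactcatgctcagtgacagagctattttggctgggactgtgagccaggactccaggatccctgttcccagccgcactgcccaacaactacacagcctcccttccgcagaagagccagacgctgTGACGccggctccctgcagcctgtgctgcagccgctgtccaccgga
Pdgfra: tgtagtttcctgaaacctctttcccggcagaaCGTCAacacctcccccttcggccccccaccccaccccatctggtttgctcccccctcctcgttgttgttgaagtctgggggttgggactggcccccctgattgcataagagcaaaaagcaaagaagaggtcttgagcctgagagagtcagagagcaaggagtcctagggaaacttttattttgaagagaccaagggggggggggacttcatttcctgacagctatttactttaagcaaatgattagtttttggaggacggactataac
The Pdgfd sequence held 1 TATAAA at bases 91 to 96, 160 bases before the start used here. It also held 1 TGACG at bases 255 to 259, just past that start. Seen from where the Pdgfd gene begins, the TATAAA lies closer but still upstream, and the TGACG lies inside the gene. The Pdgfra sequence held 1 TGACG on the minus strand at bases 33 to 37 and no TATAAA. Neither held the GC box GGGCGG. Among 32851 mouse promoter windows of the same length, 13.6% held TATAAA, 20.8% held TGACG and 35.7% held GGGCGG. Of the other ligands, Pdgfa has 2 windows, with 3 GGGCGG and 1 TGACG between them, and Pdgfc has 1 window with none of the 3 motifs. No motif overlapped another. The motifs were picked after the expression values were known, and a match is only a match of letters.

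Of the 14 probe sets, 7 were higher in CD73+ than in CD73- AD-MSCs and 0 lower, by an adjusted p under 0.05 in limma, a linear model fitted to all 45037 probe sets, its p-values adjusted by the Benjamini-Hochberg method across the whole array. Over the whole array 9.79% of probe sets were higher and 9.11% lower by the same rule. The share among the members, 50%, lay above this background, which includes dim probe sets. At an unadjusted p under 0.05 from limma, 2 member probe sets, both of Pdgfc, were lower. The share of all probe sets lower at that unadjusted p is not given. Read from the brightest probe set of each gene, 4 of 6 genes were higher, namely Pdgfb, Pdgfd, Pdgfra and Pdgfrb, against 10.1% of all 18193 genes, and 0 were lower, against 12.6%. The subgroups did not overlap on 11 of the 14 probe sets (34.9% over the array) nor on the brightest probe set of any of the 6 genes (40.8% of all genes). The median log2 difference was 0.36 over the 6 genes and -0.018 over all genes. Brighter probe sets were called more often than dim ones. When only probe sets above the median level were fitted, 5181 were higher and 5111 lower, against 4408 and 4105 of all. That fit held fewer probe sets yet called more, so its shares called lie above 9.79% and 9.11%. In it 8 of the 11 member probe sets kept were higher and 1 lower, to be read against those larger shares. In bulk RNA of this kind, a smaller share of cells that express a gene and less RNA of it per cell cannot be told apart.

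**Figure D1:**
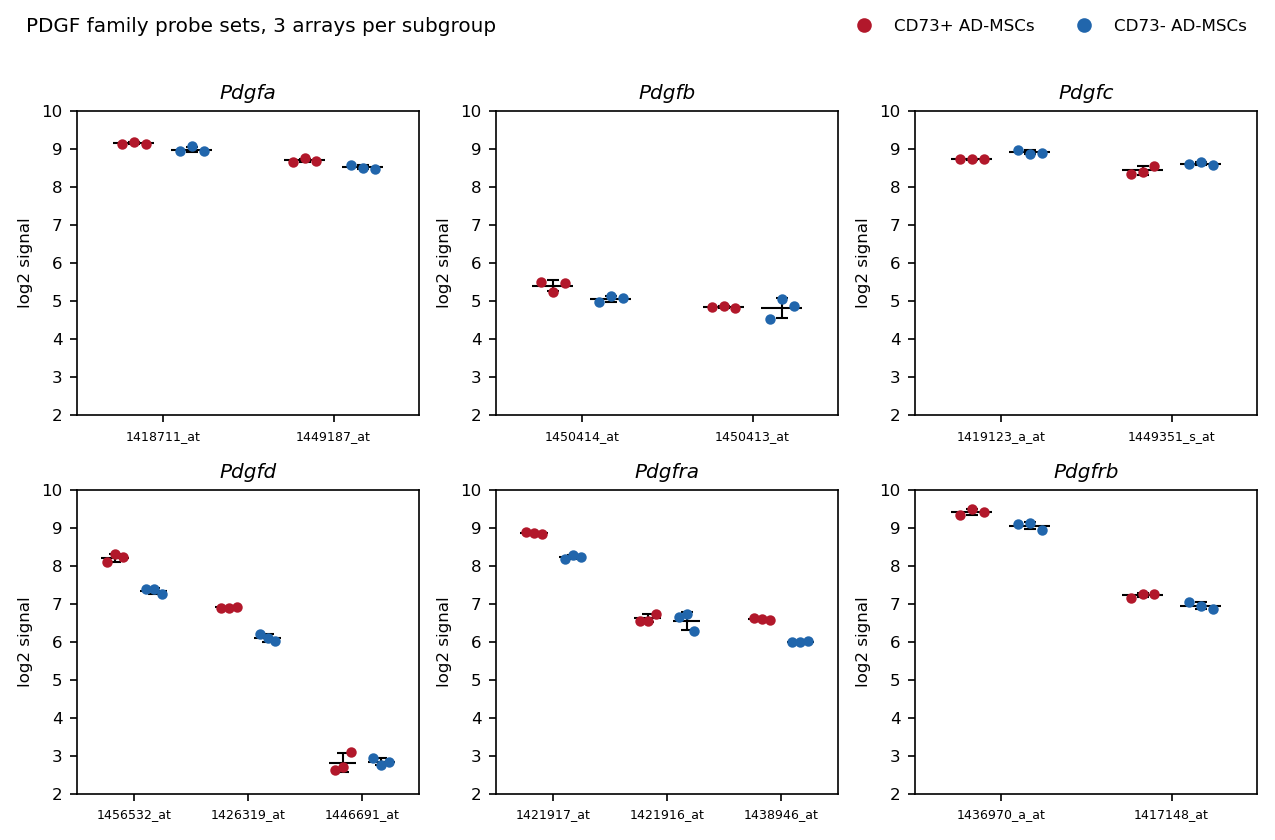
Log2 signal (vertical axis) of each probe set of the 6 PDGF genes on each of 3 CD73+ (red, left) and 3 CD73- (blue, right) arrays, where lines mark subgroup means and bars their SD. The subgroups lie apart on 2 of 3 Pdgfd and 2 of 3 Pdgfra probe sets, by 0.60 to 0.87, and overlap on 1 probe set each of Pdgfb, Pdgfd and Pdgfra.

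Pdgfd, the ligand that acts mainly through PDGFRβ, differed the most. Its brightest probe set (1456532_at) had log2 signals of 8.10, 8.32 and 8.23 in the CD73+ arrays, against 7.39, 7.41 and 7.25 in the CD73- arrays. The subgroups did not overlap, and the gap between them was several times the spread within either. The log2 difference was 0.87, which is 1.82-fold (standard error 0.077, adjusted p = 0.000495 from limma). A second probe set (1426319_at) gave 6.91, 6.90 and 6.92 in CD73+ against 6.21, 6.09 and 6.02 in CD73- arrays, a difference of 0.80 or 1.74-fold (standard error 0.065, adjusted p = 0.000355 from limma). Both rises held on the same side of the threshold in all 6 fits that left out 1 array. The third (1446691_at) lay between 2.64 and 3.10 in CD73+ and between 2.75 and 2.94 in CD73- arrays, near the lowest values of the arrays, where little can be read from it (difference -0.025, adjusted p = 0.924 from limma). With all 3 averaged, the difference of Pdgfd was 0.55 (adjusted p = 0.00116 from limma), a smaller value that includes the dim probe set.

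Pdgfc, the other ligand of the CUB type, which binds PDGFRα, had a difference of the other sign that did not pass. Its brightest probe set (1419123_a_at) had 8.75, 8.74 and 8.73 in CD73+ against 8.98, 8.88 and 8.89 in CD73- arrays. All CD73+ values lay below all CD73- values. The difference was -0.18 (95% confidence interval -0.31 to -0.049, adjusted p = 0.066 from limma). The second probe set (1449351_s_at), annotated to the same target, gave 8.36, 8.40 and 8.56 in CD73+ and 8.62, 8.67 and 8.58 in CD73- arrays, with a difference of -0.18 (adjusted p = 0.1325 from limma). Both probe sets thus gave the same small size, and leaving out the third CD73+ array brought the second past the threshold (-0.24, with 0.0471 as limma's adjusted p). The first was called lower when dim probe sets were left out before the fit (adjusted p = 0.0153 from limma), with a trended and robust prior (adjusted p = 0.00928 from limma) and with the methods' t-test (adjusted p = 0.0395), and Pdgfc was also called lower on the mean of both (-0.18, adjusted p = 0.033 from limma).

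Pdgfa, the ligand of PDGFRα alone, was measured with 2 probe sets annotated to 1 target, and neither passed. The brightest (1418711_at) had 9.15, 9.19 and 9.13 in CD73+ against 8.94, 9.07 and 8.95 in CD73- arrays, a difference of 0.17 (95% confidence interval 0.026 to 0.31, adjusted p = 0.104 from limma). The second (1449187_at) had 8.67, 8.76 and 8.68 in CD73+ against 8.60, 8.51 and 8.49 in CD73- arrays, again 0.17 higher (adjusted p = 0.09095 from limma). On both, every CD73+ value lay above every CD73- value, and the interval of the first reached up to 0.31. The mean of both was called higher (0.17, adjusted p = 0.0356 from limma), as was the brightest without dim probe sets and with the trended and robust prior (adjusted p = 0.0309 and 0.0173 from limma).

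Pdgfb, the ligand of both receptors, lay near the median brightness of the arrays' probe sets. Its brightest probe set (1450414_at) had 5.51, 5.24 and 5.47 in CD73+ against 4.97, 5.13 and 5.07 in CD73- arrays. The subgroups did not overlap, but CD73+ replicate 2 lay close to the CD73- values. The difference was 0.35 or 1.28-fold (standard error 0.086, adjusted p = 0.0276 from limma). The call was lost without any 1 of the arrays other than CD73+ replicate 2 (adjusted p 0.0548 to 0.0992 from limma), and with that array left out the difference was 0.43. The methods' t-test (adjusted p = 0.0972) and the replicate block (adjusted p = 0.079 from limma) ended it too. The second probe set (1450413_at), annotated to the same target, had 4.85, 4.87 and 4.81 in CD73+ against 4.53, 5.05 and 4.88 in CD73- arrays, which overlapped (difference 0.020, adjusted p = 0.939 from limma). The mean of both gave 0.19 (adjusted p = 0.186 from limma).

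**Figure D2:**
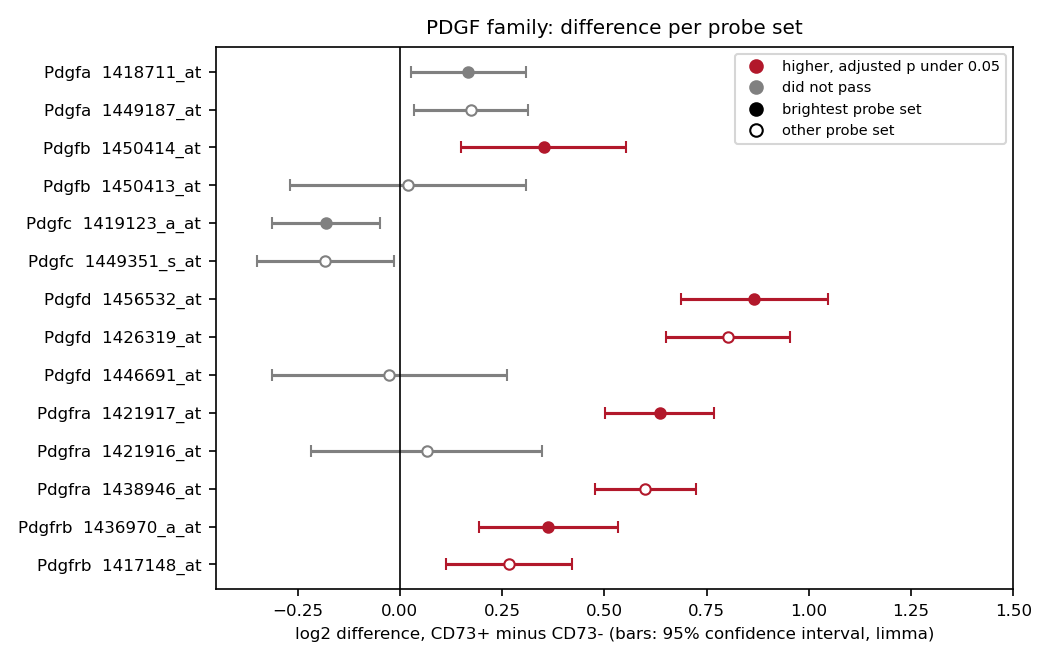
Log2 difference, CD73+ minus CD73- AD-MSCs (horizontal axis), of the 14 PDGF probe sets, with 95% confidence intervals from limma (3 arrays per subgroup). Filled points are the brightest probe set of each gene. Red points passed the threshold and grey ones did not. Values run from -0.18 for Pdgfc to 0.87 for Pdgfd.

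Pdgfra, the receptor of PDGF-A, PDGF-B and PDGF-C, was higher in CD73+ AD-MSCs on 2 of 3 probe sets. The brightest (1421917_at) had 8.90, 8.87 and 8.85 in CD73+ against 8.19, 8.29 and 8.24 in CD73- arrays. The values within a subgroup lay close together, well apart from the other subgroup. The difference was 0.64 or 1.55-fold (standard error 0.057, adjusted p = 0.000513 from limma). Another (1438946_at) had 6.64, 6.62 and 6.59 in CD73+ against 5.99, 6.00 and 6.04 in CD73- arrays, a difference of 0.60 or 1.52-fold (standard error 0.053, adjusted p = 0.000487 from limma). Both kept their call in all 6 fits that left out 1 array. The third (1421916_at) is annotated to the same target as the brightest and did not show the rise. It had 6.56, 6.56 and 6.74 in CD73+ against 6.65, 6.73 and 6.29 in CD73- arrays (difference 0.066, adjusted p = 0.787 from limma), with CD73- replicate 3 as the lowest value. Its 95% confidence interval ran from -0.22 to 0.35, below the differences of the other probe sets. The mean of the 3 gave 0.43 (adjusted p = 0.00122 from limma).

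Pdgfrb, the receptor of PDGF-B and PDGF-D, was higher on both of its probe sets, by less than Pdgfra. The brightest (1436970_a_at) had 9.35, 9.50 and 9.43 in CD73+ against 9.10, 9.13 and 8.95 in CD73- arrays. The subgroups did not overlap, and the difference was 0.36 or 1.29-fold (standard error 0.073, adjusted p = 0.0124 from limma). The adjusted p was 0.051 from limma once CD73+ replicate 2, the highest of the 6, was left out. The other probe set (1417148_at) had 7.17, 7.26 and 7.26 in CD73+ against 7.04, 6.96 and 6.88 in CD73- arrays, which is 0.27 higher or 1.20-fold (adjusted p = 0.028 from limma). This second call was lost in 5 of 6 fits without 1 array, all but the one without CD73- replicate 1 (adjusted p up to 0.0966 from limma), with median centring (0.0911) and with the methods' t-test (0.057).

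The log2 signal of Pdgfra minus that of Pdgfrb, each from its brightest probe set, was taken in every array to ask whether the receptor genes differed by unequal amounts. It was -0.44, -0.62 and -0.59 in CD73+ against -0.92, -0.84 and -0.71 in CD73- arrays. The subgroups did not overlap. The mean was -0.55 ± 0.095 in CD73+ and -0.82 ± 0.10 in CD73- AD-MSCs (SD, n = 3 each), a difference of 0.27 with a two-sided p = 0.1 from an exact permutation test, the smallest p that 3 against 3 arrays allow. On the mean of each gene's probe sets the difference was 0.12. The size of a signal does not compare between probe sets, so that only the change of this value between the subgroups can be read.

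All directions are relative to the deposited scale. The 12 poly-A control probe sets, which read bacterial transcripts normally added to RNA before labelling, were on average 0.93 lower on the log2 scale in CD73+ than in CD73- arrays. Scaling every array to them moved the median of all probe sets to 0.93 and made all 14 PDGF probe sets higher, among them those of Pdgfc at 0.75 and 0.74. Over the whole array it made 44707 of 45037 probe sets higher. Relative to the shifted median, Pdgfc stayed below and Pdgfd and Pdgfra above (1.79 and 1.56 on the brightest probe sets). This order could not change, since the scaling adds the same amount to every difference. The part of the control signals in these results was not tested. Array medians lay between 5.28 and 5.37. Arrays correlated across probe sets with r of 0.997 to 0.998 within and 0.993 between subgroups.

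**Figure D3:**
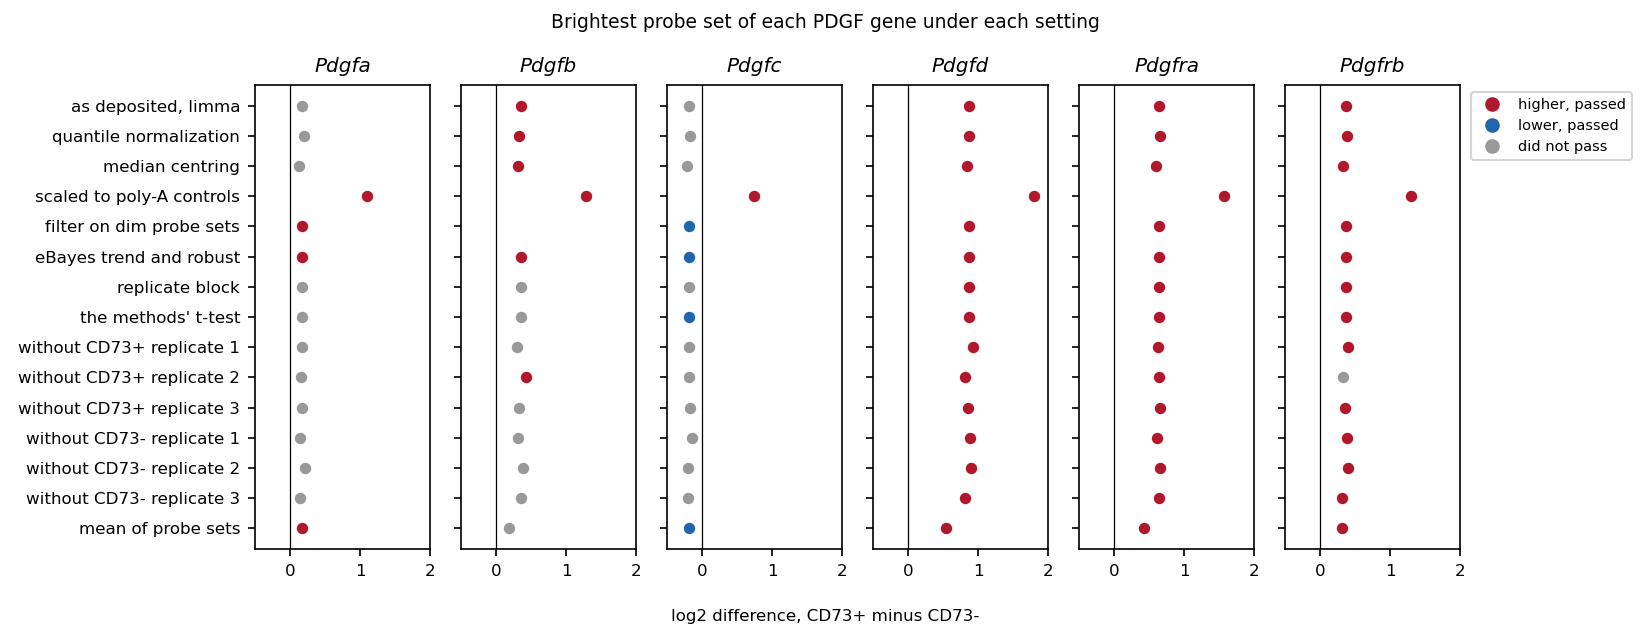
Log2 difference, CD73+ minus CD73- AD-MSCs (horizontal axis), of the brightest probe set of each PDGF gene under each setting (rows), with the last row from the mean of a gene's probe sets. Points past the threshold are red where higher and blue where lower, and the rest are grey. Pdgfd and Pdgfra passed in every row shown, and Pdgfc turned to 0.75 with scaling to the poly-A controls. That scaling raised nearly every probe set of the array, so its row does not test the rises. Pdgfb has no point where dim probe sets were left out.

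Genes that process PDGF, bind it or assist its receptors were higher or did not pass. Of 12 measured, 5 were higher and 0 lower (6 and 0 at an unadjusted p under 0.05 from limma, and 6 and 0 with the methods' t-test, its counts being unadjusted for this and the later lists), with a median log2 difference of 0.23. Over all genes 22.8% passed in either direction, 10.1% higher and 12.6% lower. These shares are at an adjusted p and include dim genes, whereas 3 of the 12 lay below the median of all probe sets. The share of all genes at an unadjusted p is not given. The unadjusted counts, here and for the later lists, therefore cannot be set against these shares. Plat, tissue plasminogen activator, which cleaves the CUB domain from PDGF-C, had 9.67, 9.67 and 9.63 in CD73+ against 8.49, 8.48 and 8.32 in CD73- arrays. It rose by 1.23 or 2.34-fold (standard error 0.066, adjusted p = 0.000126 from limma), more than any PDGF gene. Lrp1, an endocytic receptor that associates with PDGFRβ, rose by 0.61, and Nrp1, a co-receptor for several growth factors, by 0.55. The other members called, Sparc, a matrix protein that binds PDGF-B, and Thbs1, a matrix protein that also binds PDGF, rose by 0.53 and 0.27. On the mean of a gene's probe sets Plat had 0.77 and Sparc 0.30, smaller but still called. Sparc and Thbs1 were named after their values were seen, and the Thbs1 call ended without CD73+ replicate 1 (adjusted p = 0.0514 from limma). Furin, which cuts the A and B chains, stood at 0.11 (adjusted p = 0.2575 from limma). Plau, the urokinase that acts on PDGF-D, had 0.32 on a dim probe set whose subgroups overlapped (adjusted p = 0.306 from limma).

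Genes of the signalling chain below the receptors passed in both directions. Of 29 measured out of 35 listed, 4 were higher and 6 lower, with a median of 0.037. In either direction 34.5% passed, against 22.8% of all genes. Of the 29, 0 lay below the median of all probe sets, whereas the 22.8% includes dim genes, which are called less often. At an unadjusted p under 0.05 limma gave 10 higher and 8 lower, and the methods' t-test 11 and 7. Of the 3 listed subunits of PI3-kinase that bind phosphorylated receptors, Pik3r3 was higher by 0.66, with a standard error of 0.091 (adjusted p = 0.0026 from limma), and Pik3r1 by 0.65, while Pik3r2, with 0.30 (adjusted p = 0.0517 from limma), did not pass. The protein kinase C gene Prkca was higher by 0.59. Among the lower, Stat5b, a transcription factor that receptor kinases can activate, had 6.39, 6.22 and 6.44 in CD73+ against 6.93, 6.83 and 6.84 in CD73- arrays. The difference was -0.52, with a standard error of 0.075 (adjusted p = 0.00323 from limma). Sos2, an exchange factor for Ras, fell by 0.40, and Nras, one of the Ras proteins, by 0.34. Leaving out CD73+ replicate 1 ended the call of Sos2 (adjusted p = 0.0555 from limma), as did leaving out CD73- replicate 2 (0.0531) and the methods' t-test (0.0635), and the mean of the Nras probe sets, at 0.039, did not pass. The 19 members that did not pass lay between -0.21 and 0.30. With dim probe sets left out, and with a trended and robust prior, 10 members were higher, and 9 were on the mean of each gene's probe sets, where Pik3r1 had 0.34, Prkca 0.27 and Stat5b -0.30, smaller but still called.

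Genes that limit receptor signalling were also mixed. Of 11 measured out of 12, 3 were higher and 2 lower, with a median of -0.048. In either direction 45.5% passed, against 22.8% of all genes. Only 1 of the 11 lay below the median of all probe sets, whereas the 22.8% includes dim genes. At an unadjusted p under 0.05 limma gave 4 higher and 3 lower, and the methods' t-test 5 and 3. Socs3, an inhibitor of JAK and STAT signalling, had 8.74, 8.78 and 8.98 in CD73+ against 7.64, 7.61 and 7.54 in CD73- arrays and rose by 1.24 or 2.36-fold (standard error 0.078, adjusted p = 0.000166 from limma). Of the phosphatases known to act on PDGFRβ, Ptprj rose by 0.41 and Ptpn1 by 0.32, while Ptpn2 fell by 0.36. Ptpn12, another phosphatase of the same class, fell by 0.30. The rises of Ptprj and Ptpn1 did not hold in 4 of 6 fits each without 1 array (adjusted p from limma 0.0604 to 0.0824 for Ptprj and 0.0657 to 0.075 for Ptpn1), and only 1 member, Socs3, was higher when CD73+ replicate 1, or CD73+ replicate 2, or the first CD73- array was left out. The methods' t-test ended both calls (adjusted p = 0.0972 for Ptprj and 0.0574 for Ptpn1), and the replicate block ended that of Ptpn1 (adjusted p = 0.0639 from limma). On the mean of a gene's probe sets Ptprj had -0.039 and Ptpn2 -0.14 (adjusted p = 0.0785 from limma), and neither passed. Cbl, a ubiquitin ligase that marks the receptors for breakdown, had 0.11 (adjusted p = 0.23 from limma).

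Genes known to be induced early by PDGF in fibroblasts were higher more often than lower. Of 11 measured, 6 were higher and 1 lower, with a median of 0.20. In either direction 63.6% passed, against 22.8% of all genes. Only 1 of the 11 lay below the median of all probe sets, whereas the 22.8% includes dim genes. At an unadjusted p under 0.05 limma gave 6 higher and 2 lower, and the methods' t-test 7 and 2. Fos, a subunit of AP-1, had 10.54, 10.58 and 10.63 in CD73+ against 9.46, 9.49 and 9.40 in CD73- arrays. It rose by 1.13 or 2.19-fold (standard error 0.057, adjusted p = 0.000109 from limma). The chemokine Cxcl1, which serum and inflammatory cytokines also induce, rose by 1.03, and Has2, a hyaluronan synthase, by 0.93. Myc had 9.59, 9.67 and 9.62 in CD73+ against 10.10, 10.22 and 10.05 in CD73- arrays, a difference of -0.50 whose standard error was 0.065 (adjusted p = 0.00217 from limma). The genes of the list thus did not move together.

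The relatives of the PDGF receptors and their ligands gave 1 higher and 0 lower of 8 measured out of 9 (1 and 3 at an unadjusted p under 0.05 from limma, and 1 and 3 with the methods' t-test), a median of -0.057. The share that passed was 12.5%, against 22.8% of all genes. Csf1r, the receptor of colony-stimulating factor 1, had 6.77, 6.96 and 6.88 in CD73+ against 6.42, 6.23 and 6.50 in CD73- arrays, a rise of 0.49 (adjusted p = 0.00777 from limma), or of 0.297 on the mean of its probe sets. Kit, another receptor of the same class, had -0.26 (adjusted p = 0.069 from limma), and Pdgfrl, named for its likeness to the PDGF receptors, had -0.035 (adjusted p = 0.752 from limma). Both lay among the dimmer probe sets.

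**Figure D4:**
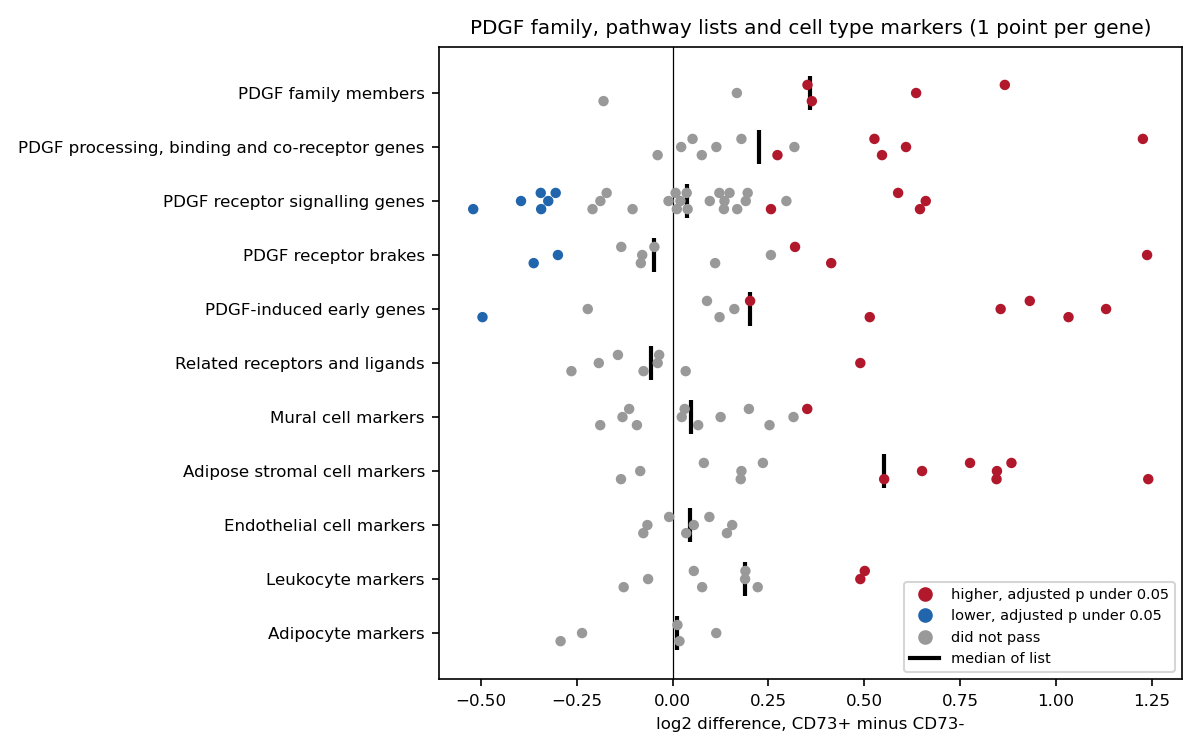
Log2 difference, CD73+ minus CD73- AD-MSCs (horizontal axis), of each measured gene of the PDGF family, of 5 lists of related genes and of 5 lists of cell type markers, each point being a gene's brightest probe set and each black bar a list's median. Genes past the threshold are red where higher and blue where lower. The PDGF family has its median at 0.36, the adipose stromal markers at 0.55 and the mural markers at 0.049.

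Markers of the cells that carry PDGF receptors moved unequally. Of 13 measured adipose stromal markers out of 14, 7 were higher and 0 lower (10 and 0 at an unadjusted p under 0.05 from limma, and 10 and 0 with the methods' t-test), with a median of 0.55. In either direction 53.8% of them passed, against 22.8% of all genes and 8.33% of the mural markers below. Of the 13 stromal markers, 3 lay below the median of all probe sets, and the 22.8% includes dim genes. Dcn, the matrix proteoglycan decorin, rose by 1.24, Nt5e, the gene of the sorted antigen, by 0.88, and Col1a1, a collagen chain, by 0.85. Nt5e is counted among the 7, although the cells were sorted on its product. On the mean of its probe sets Dcn rose by 0.66. The Nt5e call was lost in 3 of 6 fits without 1 array, those lacking CD73+ replicate 1 (adjusted p = 0.0763 from limma), the third CD73+ array (0.05635) or the third CD73- array (0.0569). It was also lost with the methods' t-test (adjusted p = 0.127) and on the mean of its probe sets, where the difference was 0.27 (adjusted p = 0.101 from limma). The summed linear signal of the stromal list lay between 25000 and 25500 in CD73+ and between 17470 and 17710 in CD73- arrays. Of 12 mural cell markers, 1 was higher and 0 lower (4 and 0 at an unadjusted p under 0.05 from limma, and 3 and 0 with the methods' t-test), with a median of 0.049. The one was Tagln, a contractile protein that cultured stromal cells also express, at 0.35, and 7 of the 12, among them Rgs5, Kcnj8 and Higd1b, lay below the median of all probe sets. The summed linear signal of the mural list was 20620 to 20760 in CD73+ and 18660 to 18950 in CD73- arrays. Such a sum is led by the brightest genes of its list and does not read a share of cells. Here most of it came from Acta2 and Tagln, with mean log2 signals of 13.67 and 12.82 in CD73+ arrays. Whether these differences have a part in the receptor values was not tested.

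Markers of other cell types were mostly dim. Of the leukocyte list 22.2% passed and of the endothelial and adipocyte lists 0%, against 22.8% of all genes. Of 8 endothelial markers, 0 were higher and 0 lower (0 and 0 at an unadjusted p under 0.05 from limma, and 0 and 0 with the methods' t-test), with differences of 0.14 for Emcn and 0.096 for Pecam1. Their summed signal was 271.9 to 342.3 in CD73+ and 275.5 to 301.1 in CD73- arrays, and 6 of 8 lay below the median of all probe sets. The highest sum was that of CD73+ replicate 3, where Egfl7 alone read 7.46. Of 9 leukocyte markers 2 were higher and 0 lower (4 and 0 at an unadjusted p under 0.05 from limma, and 2 and 0 with the methods' t-test), namely Cd14, a co-receptor for endotoxin, at 0.50 and Csf1r, already named. Their summed signal was 419.4 to 446 in CD73+ and 338.2 to 369.1 in CD73- arrays, while Ptprc, which encodes the defining leukocyte antigen CD45, averaged 3.06 in CD73+ and 3.19 in CD73- arrays, near the lowest values. Of 5 adipocyte markers measured out of 7, 0 were higher and 0 lower (0 and 1 at an unadjusted p under 0.05 from limma, and 0 and 0 with the methods' t-test). Retn had -0.24 and Fabp4, a fatty acid binding protein, -0.29 on its brightest probe set, but 0.63 on the mean of its probe sets (adjusted p = 0.000604 from limma).

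The genes whose values ran most like those of each called member over the 6 arrays were found by the root mean square difference between log2 values, each centred on its own mean. For Pdgfd these were Cdkn2d (0.039 on the log2 scale), Synpo (0.044) and Ank3 (0.053), which encode a cell cycle inhibitor, an actin-associated protein and an ankyrin. Cdkn2d had 7.61, 7.76 and 7.70 in CD73+ against 6.85, 6.88 and 6.81 in CD73- arrays. For Pdgfra they were Sqle (0.015), Chst11 (0.022) and Rab4b (0.030), which encode an enzyme of cholesterol synthesis, a chondroitin sulfotransferase and a small GTPase of endosomes. For Pdgfrb they were Dlx1 (0.026), Clybl (0.029) and Fosl2 (0.029), and for Pdgfb Thsd1 (0.034), Pla2r1 (0.035) and Lrp8 (0.047). With 6 arrays in 2 subgroups, genes of like difference are near each other by this measure, and no more is read from it.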

How the data were processed

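RNA of 3 CD73+ and 3 CD73- AD-MSC samples was measured on Affymetrix mouse arrays. The authors deposited log2 signals of 45101 probe sets, attributed to RMA in the submitters' processing notes, with version and software not given in the sources used here. RMA corrects the background, equalises the arrays' distributions and summarises probes, which removes shifts shared by most transcripts.

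After 64 control probe sets were set aside, the other 45037 entered 1 model (R 4.3.3, limma 3.58.1, functions lmFit and eBayes, without block or filter) with Benjamini-Hochberg adjustment and a threshold of 0.05, tested first on simulated data. In the annotation 34945 probe sets had 1 gene symbol, 932 several and 9160 none, and 34741 of the first kind matched RefSeq (GRCm38.p6) by gene ID. Promoter windows of 4 of 6 members were used, of which Pdgfd and Pdgfra are shown. A gene was read from its brightest probe set. Named are all members, up to 3 genes with the largest rise and 3 with the largest fall of each list among those called (the 2 with the smallest p where none was), and the 3 nearest patterns. The number of arrays limits the precision. Members and lists were chosen with earlier results of these data known, and the lists come from general knowledge.

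Alternatives were quantile normalization, median centring, scaling to poly-A controls, a filter at the median level, a trended and robust prior, a replicate block, the methods' t-test (the study names ANOVA with Tukey's t-test, not tied to the arrays, and a pooled-variance test of 2 groups, a form it does not name, was run here in its place), leaving out each array, and the mean of a gene's probe sets. Replicate numbers are shared between subgroups. Confidence intervals cover 95%. Python 3.11.15 with matplotlib 3.10.9 drew the figures.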

Additional observations from a re-analysis of the deposited data

How the results depend on the processing

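The calls of Pdgfd (2 probe sets) and Pdgfra (2 probe sets) held in every alternative run. Scaling to the poly-A controls is no test of them, because it raised nearly every probe set. Of the 14 PDGF probe sets, 5 to 6 were higher and 0 to 1 lower when 1 array was left out, against 7 and 0 with all arrays. The replicate block left 5 higher and 0 lower, ending the calls of Pdgfb and of the second Pdgfrb probe set (adjusted p = 0.079 and 0.0877 from limma), and among other named genes those of Ptpn1, Thsd1, Lrp8 and Dlx1 (0.0639, 0.104, 0.063 and 0.0532). Same-numbered arrays deviated with r of -0.14, 0.028 and -0.14 from their subgroup means. Arrays of unlike number gave r of -0.063 to 0.17. With 3 arrays per subgroup these values cannot show whether the numbers pair the arrays, and the labels do not say. Over all probe sets the block took the calls to 5793, against 8513, and leaving out CD73+ replicate 1 took them to 5319. With 1 array left out, 1 to 4 brakes were higher, 0 to 1 relatives lower and 1 to 3 mural markers higher, while the values that did not pass ran from -0.12 to 0.135 for the second Pdgfb, -0.17 to 0.065 for the third Pdgfd and -0.068 to 0.15 for the Pdgfra probe set 1421916_at.

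Scaling to the poly-A controls made 14 PDGF probe sets, 12 processing, 29 signalling, 11 brake, 11 early, 8 related, 12 mural, 13 stromal, 8 endothelial, 9 leukocyte and 5 adipocyte genes higher and 0 signalling, brake and early genes lower. Over the whole array this scaling called 44707 of 45037 probe sets higher and 33 lower, so the counts are not particular to these lists. It turned Pdgfc to 0.75 and 0.74, the dim Pdgfd probe set to 0.90, Stat5b to 0.41, Myc to 0.43, Sos2 to 0.53, Ptpn2 to 0.56, Nras to 0.58, Ptpn12 to 0.63, Fabp4 to 0.63 and Retn to 0.69, since it adds 0.93 to every difference. Without dim probe sets 1 PDGF probe set was lower, 10 signalling genes and 2 mural markers higher, and 2 early and 2 related genes lower. With the trended and robust prior the same counts were 2, 10, 2, 2 and 2. The methods' t-test called 1 PDGF probe set lower and 1 brake higher. Quantile normalization and median centring called 2 early genes lower each, and median centring 1 related gene, with -0.012 for the second Pdgfb probe set. On the mean of a gene's probe sets 9 signalling genes, 3 mural and 1 adipocyte marker were higher, 2 early genes, 2 related genes and 1 mural marker lower, the receptor difference was 0.12, and Nras, Ptprj and Fabp4 turned to 0.039, -0.039 and 0.63. The causes of these moves were not tested. The leave-one-out range of the receptor difference was 0.22 to 0.33. Its two-sided p from the exact permutation test was 0.2 without CD73+ replicate 1 and 0.1 in every other such fit.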
